A study of Rattus norvegicus with 8 samples.

Results

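Ppargc1a, Fis1, Mfn1 and Pink1 are 4 regulators of how many mitochondria a cell makes, how they divide and fuse, and how damaged ones are removed. They were taken by gene name from the authors' deposited tables of changed genes, which hold 450 of the 15207 probes measured, and each of the 4 genes had 1 listed probe. Ppargc1a, Fis1 and Pink1 were listed as higher and Mfn1 as lower after postnatal fluoxetine. The tables were filtered on the comparison of PNFLX with CONTROL, so the group differences of these genes are described here without a test, and they support nothing by themselves. The authors' deposited table asks for a PNFLX mean 0.4 or more log2 units away from the control median, and an unadjusted p of at most 0.05. Of the 4 genes, Ppargc1a was nearest to the limit on p (0.0387 in the authors' deposited table) and Pink1 nearest to the limit on size (a mean of 0.81 in the authors' deposited table). Among probes past the limit on size, the last probe inside had a p of 0.0498 and the first outside lay just above 0.05. Among probes past the limit on p, the smallest mean inside was 0.41 and the largest outside was 0.397 (log2, either direction).

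The tissue was the medial prefrontal cortex (mPFC) of rats (Rattus norvegicus) at 6 months of age, measured on a custom Agilent array in a single colour (Cy3). Rats of the PNFLX group were dosed with fluoxetine, an antidepressant that blocks serotonin reuptake, at 10 mg/kg from postnatal day 2 to 21. Rats of the CONTROL group had received a 5% sucrose vehicle over the same days, so both groups share the days of dosing and the age at measurement. Each group had 4 arrays, named here by the numbers in the sample titles (CONTROL 3, CONTROL 4 and PNFLX 4 are numbered 4, 5 and 5 in the source names and in the authors' deposited tables), and no source used here gives strain, sex or litter. The labels do not state that arrays came from separate animals, so measures of spread refer to these arrays, and their number limits the precision. The descriptions of CONTROL 2, 3 and 4 mention fluoxetine while their titles and source names call them control, and the titles were followed.

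Mitochondria are renewed by growth, division, fusion and selective removal, and neurons depend on this turnover because their synapses lie far from the cell body and use much ATP. The coactivator PGC-1 alpha (Ppargc1a) drives transcription of nuclear genes for mitochondrial proteins through factors such as NRF1 and the estrogen-related receptors. FIS1 sits in the outer membrane and takes part in recruiting the fission machinery, while mitofusin 1 (Mfn1) is an outer-membrane GTPase that tethers and fuses neighbouring mitochondria. PINK1 is a kinase that accumulates on damaged mitochondria and recruits the ubiquitin ligase parkin to mark them for mitophagy.

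A pair of arrays, CONTROL 1 and PNFLX 2, differed from the remaining 6 in the same way. Across all probes, which are no independent replicates, their deviations from the group means correlated at r = 0.85. Their median log2 value was 0.79 and 0.59, against -0.18 to 0.09 on the others. Results are therefore also given for the other 6 arrays, 3 per group. Only the 450 listed probes carried gene names (1.48% of all probes as higher and 1.48% as lower), so other markers may be measured without a name. Of 45 marker symbols in 8 cell type lists, 5 had a named probe. The lists of excitatory neurons, interneurons, astrocytes, oligodendrocytes, microglia and erythrocytes had none, so the tissue label could not be checked against them. The 5 markers were listed as lower. Vcan of oligodendrocyte precursors was at -3.24 ± 0.54 (log2 change ± SE). Its PNFLX 1 signal was at the lowest of that array, and PNFLX 2 and 4 stood at 2.07 and 2.27 times the lowest of theirs. The others were 4 of 7 endothelial and pericyte symbols, Rgs5 (-3.06 ± 0.77), Anpep (-0.66 ± 0.30), Cldn5 (-0.57 ± 0.29) and Kcnj8 (-0.43 ± 0.22). Rgs5 on PNFLX 1 stood at 1.72 times the lowest signal of that array. The summed signal of the 4 endothelial and pericyte genes was 2506 to 3812 in CONTROL and 2202 to 2805 in PNFLX. These sums use signals not scaled between arrays, so their overlap is not a comparison of the groups. The array constants (log2 signal minus log2 value, relative to the mean array) ran from -0.52 on CONTROL 4 to 0.50 on PNFLX 2. Cldn5 alone gave 1897 to 2920 in CONTROL and 1713 to 2280 in PNFLX. The part of these cell types in the values below was not tested, and in whole tissue fewer cells of a type and less RNA per cell cannot be told apart.

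Ppargc1a gave the dimmest probe of the 4 genes and the widest spread among CONTROL arrays. The probe carries accession NM_031347 and band 14q11 in the authors' annotation. Its processed signal, Agilent's background-subtracted intensity, was 49.5, 3.61, 8.87 and 4.88 in CONTROL 1 to 4. It was 32.9, 142.9, 44.6 and 28.6 in PNFLX 1 to 4. CONTROL 1 lay inside the PNFLX range and the other 3 CONTROL arrays lay below all 4 PNFLX arrays. On the log2 scale relative to the control median, the CONTROL values were 2.36, -1.08, 0.21 and -0.21 and the PNFLX values were 2.26, 3.64, 2.38 and 1.78. The group means were 0.32 ± 1.46 and 2.51 ± 0.80 (SD, n = 4), a change of 2.20 ± 0.77 (log2, SE). No fold is given, since the CONTROL signals lay close to the lowest of their arrays. In the 6 arrays without CONTROL 1 and PNFLX 2 the change was 2.50 and the groups were apart by 1.57 (log2). Leaving out arrays can never narrow the gap between groups, here or for the genes below, so a wider gap supports nothing.

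The signals of Ppargc1a in CONTROL 1 to 4 were 3.33, 1.52, 3.17 and 1.91 times the lowest signal listed on the same array. In PNFLX 1 to 4 they were 11.1, 15.7, 39.1 and 21.2 times that lowest signal, and on this measure the groups did not overlap. The lowest signal is that of the listed probes, which were picked on the same comparison and include probes listed as lower. The lack of overlap on this measure therefore supports nothing by itself. CONTROL 1 also had a higher lowest signal (14.9) than the other CONTROL arrays (2.38 to 2.80), and PNFLX 2 (9.09) than the other PNFLX arrays (1.14 to 2.97). The Ppargc1a probe was 1 of 18 listed probes with a median CONTROL signal under 10, and CONTROL 1 gave the highest CONTROL value in all 18 (median 1.88, range 0.18 to 3.91, log2). The part of probe brightness in the CONTROL 1 value of Ppargc1a was not tested. The plot of CONTROL 1 against probe brightness gives the values over the whole range of signals.

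**Figure D1:**
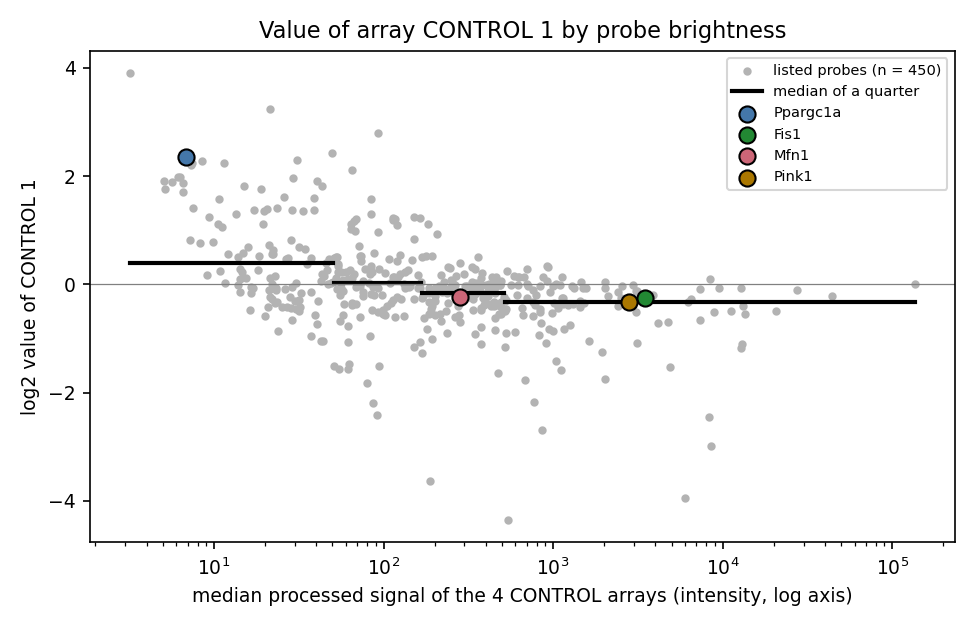
Log2 value of array CONTROL 1 (vertical axis) against the median processed signal of the 4 CONTROL arrays (horizontal axis, log scale) for the 450 listed probes, with the median of each of 4 brightness classes of 112 or 113 probes as a black line and the 4 genes in colour. The class medians go from 0.39 in the dimmest, which holds Ppargc1a at 2.36, to -0.33 in the brightest, which holds Fis1 at -0.25 and Pink1 at -0.32.

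The window around the annotated Ppargc1a start site in the RefSeq table of assembly GRCr8 is shown because it holds the letters of a cyclic AMP response element, and CREB is known to act on the promoter of this gene. It covers 250 bases before and 50 bases from the start site, chr14:63634058-63634357 on the + strand, in 5′ to 3′ order, with motif letters in capitals.
Ppargc1a: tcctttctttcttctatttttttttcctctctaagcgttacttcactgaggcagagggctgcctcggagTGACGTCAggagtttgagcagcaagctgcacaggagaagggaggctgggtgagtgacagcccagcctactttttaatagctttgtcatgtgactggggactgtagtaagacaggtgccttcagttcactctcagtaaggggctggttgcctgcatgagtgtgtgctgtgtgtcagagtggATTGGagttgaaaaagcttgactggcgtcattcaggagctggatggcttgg
The palindrome TGACGTCA begins at position -181 from the start site, and ATTGG, the reverse complement of the CCAAT box, begins at -1. Of all 33469 windows of this length in the table, 1.83% held TGACGTCA and 37.5% held CCAAT on either strand. A match of letters describes the sequence and does not show binding.

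Fis1 was among the brighter listed probes and its groups did not overlap. The probe carries the predicted accession XM_213746 on chromosome 12, and RefSeq lists 1 pseudogene of Fis1, and whether this probe also binds its transcript was not tested. Signals were 3403, 2916, 3533 and 3926 in CONTROL 1 to 4 and 8772, 10018, 16607 and 11938 in PNFLX 1 to 4. The log2 values were -0.25, -0.14, 0.14 and 0.74 in CONTROL and 1.60, 1.06, 2.21 and 1.77 in PNFLX. All 4 PNFLX arrays lay above all CONTROL arrays, with a smallest gap of 0.33 (log2) between CONTROL 4 and PNFLX 2. The means were 0.12 ± 0.44 and 1.66 ± 0.47 (SD, n = 4), a change of 1.54 ± 0.36 (log2, SE) or 2.91-fold. Without CONTROL 1 and PNFLX 2 the change was 1.62 and the gap 0.87 (log2). The signals stood at 229 to 1541 times the lowest listed signal in CONTROL and at 1102 to 14557 times in PNFLX.

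Mfn1 had the largest change of the 4 genes and was listed as lower. The probe carries accession NM_138976 and band 2q25 in the authors' annotation. Signals were 280, 322, 284 and 177 in CONTROL 1 to 4 and 2.97, 24.8, 63.6 and 44.4 in PNFLX 1 to 4. The log2 values were -0.23, 0.30, 0.12 and -0.12 in CONTROL and -6.30, -3.98, -2.20 and -2.68 in PNFLX. The CONTROL arrays lay close together, the PNFLX arrays spread over more than 4 log2 units, and the groups were apart by 1.97 (log2). The means were 0.02 ± 0.24 and -3.79 ± 1.84 (SD, n = 4), a change of -3.81 ± 0.85 (log2, SE), and 27 of all probes had a lower change.

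The lowest Mfn1 value came from PNFLX 1, where the probe stood exactly at the lowest listed signal of the array (2.97). That signal was shared by 57 listed probes on PNFLX 1, all 57 listed as lower, whereas the lowest signal of each other array belonged to 1 probe. The value of -6.30 is thus that of the array's floor. Without PNFLX 1 the change of Mfn1 was -2.97 ± 0.47 (log2, SE), and without CONTROL 1 and PNFLX 2 it was -3.83. The remaining PNFLX signals stood at 2.72 (PNFLX 2), 55.8 (PNFLX 3) and 33.0 (PNFLX 4) times the lowest listed signal of their arrays. The lowest listed signals of PNFLX 3 and 4 (1.14 and 1.35) were themselves below those of the other arrays. Mfn1 also lay below all CONTROL arrays on PNFLX 3 and 4, but it was picked on these same arrays, so this supports nothing by itself. The part of the floor in the change of Mfn1 was not tested.

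**Figure D2:**
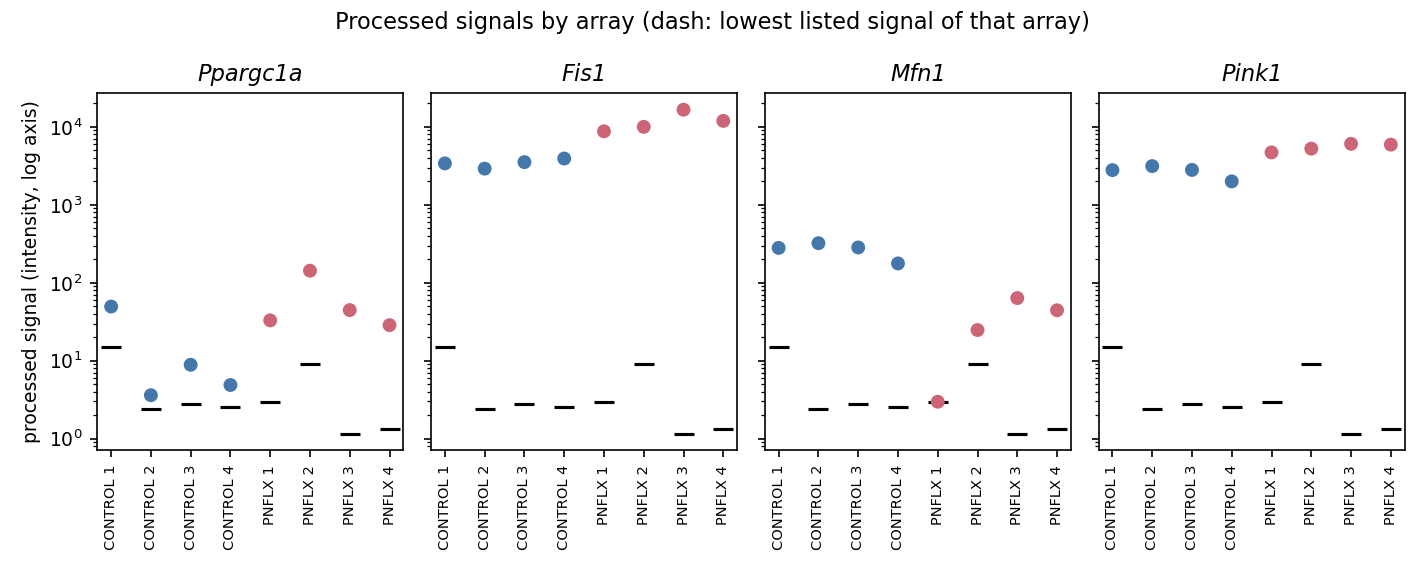
Processed signal of the 4 genes on each array (vertical axis, log scale, CONTROL in blue and PNFLX in red) with the lowest listed signal of that array as a dash. Ppargc1a in all 4 CONTROL arrays and Mfn1 in PNFLX 2 lie near the dash (1.52 to 3.33 times it), Mfn1 in PNFLX 1 lies at it, and Fis1 and Pink1 lie far above it on all 8 arrays.

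Pink1 had the smallest change of the 4 genes and the narrowest spread. The probe carries the predicted accession XM_216565 on chromosome 5. Signals were 2790, 3141, 2806 and 1999 in CONTROL 1 to 4 and 4705, 5258, 6063 and 5919 in PNFLX 1 to 4. The log2 values were -0.32, 0.19, 0.02 and -0.02 in CONTROL and 0.92, 0.35, 0.98 and 0.98 in PNFLX. The groups did not overlap, with a gap of 0.16 (log2), and PNFLX 2 lay well below the other 3 PNFLX arrays. The means were -0.03 ± 0.21 and 0.81 ± 0.30 (SD, n = 4), a change of 0.84 ± 0.27 (log2, SE) or 1.79-fold. Without CONTROL 1 and PNFLX 2 the change was 0.90 and the gap, which leaving out arrays cannot narrow, was 0.73 (log2). Its standard deviation within groups was 0.26 (log2), and 7.52% of all probes had a smaller one, against 29.4% for Fis1, 57.3% for Ppargc1a and 61.7% for Mfn1.

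**Figure D3:**
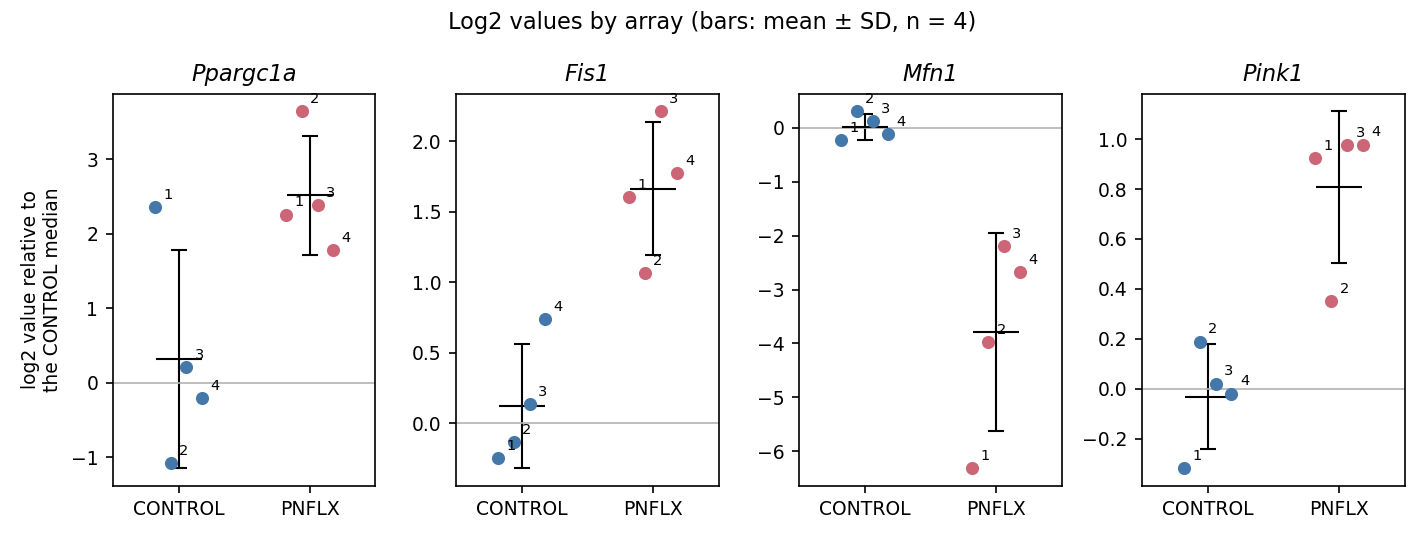
Log2 value relative to the control median (vertical axis) of the 4 genes on 4 CONTROL and 4 PNFLX arrays, with array numbers beside the points and the mean ± SD as black bars. Only Ppargc1a has a CONTROL array (CONTROL 1, 2.36) inside the PNFLX range. The vertical scales differ between genes.

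The start windows of Fis1, Mfn1 and Pink1 in the same RefSeq table are shown next to one another so that their motif letters can be set beside those of the Ppargc1a window. Fis1 has a pair of annotated windows, of which the one at chr12:25349283-25349582 on the - strand is printed. Mfn1 is chr2:117241508-117241807 on the + strand and Pink1 is chr5:155825901-155826200 on the - strand, all in GRCr8, with motif letters in capitals.
Fis1: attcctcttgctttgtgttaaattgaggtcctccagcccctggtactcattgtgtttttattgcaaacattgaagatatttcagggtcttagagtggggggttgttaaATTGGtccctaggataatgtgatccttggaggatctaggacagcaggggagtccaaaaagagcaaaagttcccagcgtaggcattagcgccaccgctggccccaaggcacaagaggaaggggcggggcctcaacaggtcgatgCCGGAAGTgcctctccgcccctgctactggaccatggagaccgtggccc
Mfn1: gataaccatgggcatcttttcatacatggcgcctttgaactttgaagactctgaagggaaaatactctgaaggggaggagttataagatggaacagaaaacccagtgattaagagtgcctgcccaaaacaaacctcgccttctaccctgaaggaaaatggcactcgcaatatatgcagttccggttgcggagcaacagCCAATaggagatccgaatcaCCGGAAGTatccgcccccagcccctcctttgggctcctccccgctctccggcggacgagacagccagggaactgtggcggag
Pink1: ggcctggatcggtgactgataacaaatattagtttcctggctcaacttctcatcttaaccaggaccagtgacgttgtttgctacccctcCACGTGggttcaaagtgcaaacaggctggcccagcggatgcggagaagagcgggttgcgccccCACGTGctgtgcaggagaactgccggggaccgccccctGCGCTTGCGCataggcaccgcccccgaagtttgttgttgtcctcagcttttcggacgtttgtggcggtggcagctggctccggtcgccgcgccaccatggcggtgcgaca
The ETS core CCGGAAGT, the letters that GABP (NRF2) is known to bind, begins at position 2 in Fis1 and at -32 in Mfn1, and 3.81% of all windows held it on either strand. The NRF1 motif (GCGC, any base, then TGCGC) begins at -60 in Pink1 as GCGCTTGCGC and was held by 4.25% of all windows. The E-box CACGTG begins at -161 and -98 in Pink1 and was held by 6.42% of all windows. CCAAT begins at -52 in Mfn1, and its reverse complement at -142 in Fis1. TGACCTTG, the letters of the estrogen-related receptor element (1.52% of all windows), was in none of the printed windows, and the other Fis1 window held none of the 6 motifs searched. The ETS core is thus in a window of a gene listed as higher and in that of the gene listed as lower, and no link between these letters and the array values was tested.

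None of the 4 probes passed limma's threshold over all 15207 probes (Benjamini-Hochberg adjusted p under 0.05), where 0.118% of all probes did (0.0592% as higher and 0.0592% as lower), and all 4 had an unadjusted limma p under 0.05, against 2.58% of all probes. The smallest adjusted p of the 4 was 0.434, for Mfn1 (limma). With array weights, Fis1, Pink1 and Ppargc1a passed the adjusted threshold and Mfn1 did not, with 150 of all probes called. In 3 of the 4 genes the groups did not overlap, against 2.32% of all probes (1.18% as higher, with Fis1 and Pink1, and 1.14% as lower, with Mfn1). Since the authors' criteria (2.96% of all probes, 1.48% as higher and 1.48% as lower) picked the genes on the same arrays, nothing is read from these counts.

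Ratios within an array do not depend on a constant that scales a whole array. Fis1 minus Mfn1, fission over fusion gene relative to the controls, was -0.02, -0.44, 0.02 and 0.85 (log2) in CONTROL 1 to 4. It was 7.91, 5.04, 4.41 and 4.45 in PNFLX 1 to 4, so every PNFLX array lay above every CONTROL array by more than 3 log2 units. The PNFLX 1 value carries the floor signal of Mfn1. Fis1 minus Pink1 was -0.32 to 0.76 in CONTROL and 0.68 to 1.24 in PNFLX, ranges that overlap. Ppargc1a minus Fis1 also overlapped, at -0.95 to 2.61 in CONTROL and 0.00 to 2.58 in PNFLX. These ratios rest on the genes' selection and carry no test.

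The log2 values, each relative to the control median of its own probe, were also ranked among all probes on the same array. Such a rank takes the array's own distribution into account. It places the deviation from control and not the level of expression, and the genes were picked on that deviation. Fis1 lay above 97.0%, 98.8% and 98.98% of all probes on PNFLX 1, 4 and 3 but above 58.4% on PNFLX 2. Ppargc1a lay above 98.4%, 99.2% and 98.8% on PNFLX 1, 3 and 4 and above 89.9% on PNFLX 2. Pink1 lay above 92.2%, 94.9% and 96.6% on those 3 arrays. On PNFLX 2 it lay above 44.7%, so its log2 value there was no higher than the middle of all probes. Its signal on PNFLX 2 (5258) was above 95.6% of the listed signals. Mfn1 had 0.263%, 0.283%, 5.19% and 2.16% of all probes below it on PNFLX 1 to 4. On CONTROL 1 the shares were 70.4% for Ppargc1a, 26.6% for Fis1, 27.4% for Mfn1 and 23.6% for Pink1, although Ppargc1a had a log2 value of 2.36 there.

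Covariation was examined after the group means had been removed, because the group difference chose the genes. Ppargc1a and Pink1 deviated in opposite directions across the 8 arrays, with Pearson r = -0.86 (exact permutation of arrays within groups, two-sided p = 0.0122, adjusted p = 0.0729 over 6 pairs) and Spearman rho = -0.81 (exact permutation p = 0.0312, adjusted p = 0.188). The pair did not pass after adjustment. Ppargc1a was 2.04 (log2) above its group mean in CONTROL 1 and 1.13 above it in PNFLX 2, where Pink1 was at -0.29 and -0.46. In the other 6 arrays r was -0.80 (exact permutation p = 0.25, smallest possible p 0.0278). With quantile normalization r was 0.27, the opposite sign.

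The other 5 pairs did not pass either. Fis1 and Pink1 had r = 0.60 (exact permutation p = 0.175, adjusted p = 0.526) and rho = 0.36 (exact permutation p = 0.436). Both were lowest in PNFLX 2 within their group, and in the 6 arrays without CONTROL 1 and PNFLX 2 the sign turned (r = -0.56, exact permutation p = 0.472). Ppargc1a and Fis1 had r = -0.47 (exact permutation p = 0.271) and rho = -0.45 (exact permutation p = 0.312), and r = 0.47 in the other 6 arrays (exact permutation p = 0.556). Fis1 and Mfn1 had r = 0.33 (exact permutation p = 0.552) and rho = 0.52 (exact permutation p = 0.234), and r = 0.37 in the other 6 arrays. Mfn1 and Pink1 had r = 0.19 (exact permutation p = 0.753) and rho = 0.64 (exact permutation p = 0.106), and r = 0.35 in the other 6 arrays (exact permutation p = 0.0556, adjusted p = 0.333). Without PNFLX 1, the array on which Mfn1 was at the floor, r was 0.91 (exact permutation p = 0.0139, adjusted p = 0.0625). Ppargc1a and Mfn1 had r = -0.16 (exact permutation p = 0.66) and rho = -0.45 (exact permutation p = 0.247), and r = -0.15 in the other 6 arrays. When the 2 arrays farthest from the median of the first gene of each pair were left out, as a setting chosen after seeing the data, r was 0.69 for Fis1 and Mfn1, 0.31 for Fis1 and Pink1 and 0.94 for Mfn1 and Pink1, and as in the other 6 arrays for the pairs with Ppargc1a.

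**Figure D4:**
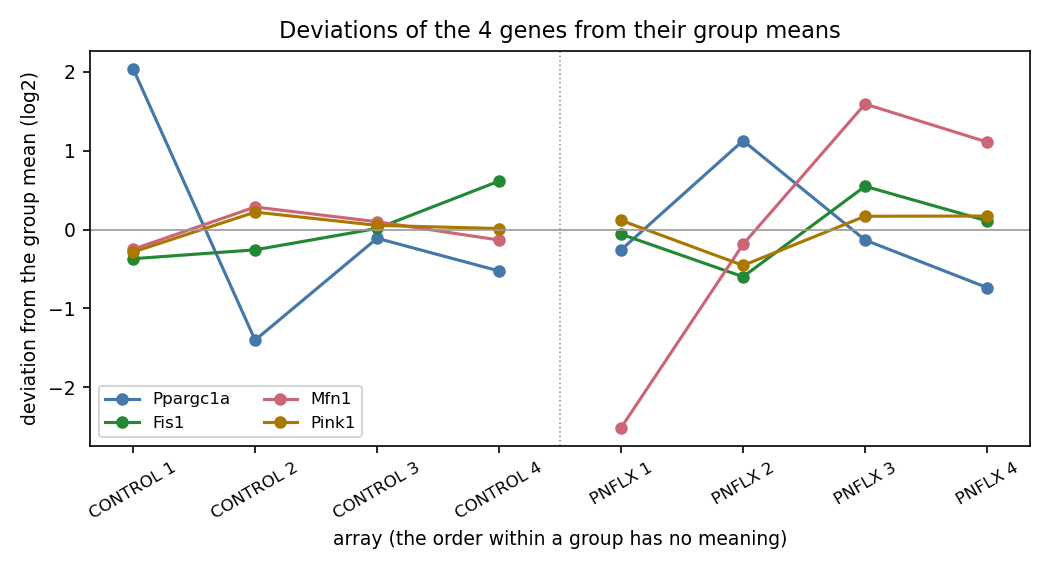
Deviation from the group mean (vertical axis, log2) of the 4 genes on each array, with a line per gene within each group. Ppargc1a is highest in CONTROL 1 (2.04) and PNFLX 2 (1.13), Pink1 is lowest there (-0.29 and -0.46), and Mfn1 is lowest in PNFLX 1 (-2.51).

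Among the other named probes of the authors' tables, those with the most similar deviations were found for each gene, as a description over 8 arrays that share the 2 arrays set apart. For Ppargc1a they were Akr1b7 (r = 0.97, listed as lower), Grlf1-ps1 (0.96) and Lamc1 (0.95), with r = 0.86, 0.75 and 0.65 in the other 6 arrays. For Fis1 they were Mas1 (0.83) and Cdk17 (0.81), both listed as lower, and Lxn (0.81), with r = 0.76, 0.69 and 0.87 in the other 6 arrays. For Mfn1 they were Psmd2 (0.98, listed as higher), Rpa2 (0.98) and Tsn (0.96), with r = 0.98, 0.98 and 0.99 in the other 6 arrays. For Pink1 they were Ndfip2 (0.97), Pcdhac2 (0.95) and Arfgef2 (0.95), with r = 0.67, 0.88 and 0.36 in the other 6 arrays. The 6 arrays still hold PNFLX 1, where Mfn1 and Rpa2 were both at the lowest signal. Without PNFLX 1, a setting chosen after seeing the data, r with Mfn1 was 0.93 for Psmd2, 0.88 for Rpa2 and 0.73 for Tsn over 7 arrays.

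Gene names were given only for the 450 listed probes, 2.96% of all probes (1.48% as higher and 1.48% as lower). A named probe is thus a listed one. Of 137 symbols in 6 lists of mitochondrial biogenesis, fission, fusion, mitophagy, transport and import genes, 10 had a named probe, the 4 genes above and 6 more. Of these 6, 2 were listed as higher and 4 as lower, none passed limma's adjusted threshold (0.118% of all probes did) and 3 had an unadjusted p under 0.05 (limma, 2.58% of all probes). As the authors picked the 6 on these very arrays, their directions are no independent evidence. The lists held 1 named gene of 25 for biogenesis, 1 of 11 for fission, 3 of 18 for fusion and inner membrane shape, 3 of 37 for mitophagy, 0 of 11 for transport and 2 of 35 for import, chaperones and proteases. The other symbols, among them Mfn2, Opa1, Dnm1l, Tfam and parkin, were not analysed here. Their lack of a named probe does not show that the array lacks them.

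Slc25a46, an outer-membrane protein of mitochondrial shape whose loss disturbs fusion and fission, lay above CONTROL in every PNFLX array. Its signals were 25.7, 73.0, 64.5 and 38.1 in CONTROL 1 to 4 and 128, 183, 191 and 172 in PNFLX 1 to 4. The change was 1.64 ± 0.43 (log2, SE), and 1.33 without CONTROL 1 and PNFLX 2. Chchd3, a subunit of the MICOS complex that shapes the cristae, was at -0.43 ± 0.24, with PNFLX 2 at -0.11 (log2) inside the CONTROL range of -0.25 to 0.08. The fusion and shape list thus had Slc25a46 as higher with Mfn1 and Chchd3 as lower.

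In the mitophagy list Pink1 was listed as higher while Park7 and Gabarapl2 were listed as lower. Park7, which encodes the redox-sensing protein DJ-1 and like Pink1 is mutated in inherited human parkinsonism, had signals of 6808, 6447, 6581 and 5084 in CONTROL and 5054, 4474, 5176 and 3384 in PNFLX. Its change was -0.68 ± 0.30 (log2, SE), and PNFLX 1 at -0.21 lay inside the CONTROL range of -0.27 to 0.09. Gabarapl2, an ATG8-family protein of the autophagosome membrane, was at -0.87 ± 0.33 (log2, SE), with groups apart by 0.03 (log2). Without CONTROL 1 and PNFLX 2 the changes were -0.62 and -0.88.

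The import and protease list had Trap1 as higher and Pmpca as lower. Trap1, a mitochondrial HSP90 chaperone known as a substrate of PINK1, was at 1.72 ± 0.50 (log2, SE), and its signals were 65.4, 14.6, 11.3 and 19.9 in CONTROL and 71.3, 100.6, 98.7 and 63.0 in PNFLX. Like Ppargc1a, this dim probe (median CONTROL signal 17.3) had its highest CONTROL value in CONTROL 1, and without CONTROL 1 and PNFLX 2 the change was 2.17. Slc25a46 (median CONTROL signal 51.3) instead had its lowest CONTROL value in CONTROL 1 (-1.50, log2). Pmpca, a subunit of the matrix processing peptidase, was at -0.39 ± 0.24 with overlapping groups. Its median CONTROL signal was 53.3, and its CONTROL 1 value (-0.08, log2) was not the highest.

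The direction of the 4 genes was the same under the 17 other settings run for each, as the plot of settings shows. Ppargc1a ranged from 1.28 to 2.88 (log2), Fis1 from 1.30 to 1.75, Mfn1 from -4.34 to -2.94 and Pink1 from 0.67 to 1.11. The lowest values of Ppargc1a and Pink1 were those of PNFLX 2 minus CONTROL 1 (1.28 and 0.67), 1 array each and without a test. In that pair Fis1 was at 1.31 and Mfn1 at -3.75, so each gene had its listed direction within the arrays set apart as well as within the other 6. The selection of the genes on these arrays fixes the direction over all 8 arrays, so this is no sign of stability.

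**Figure D5:**
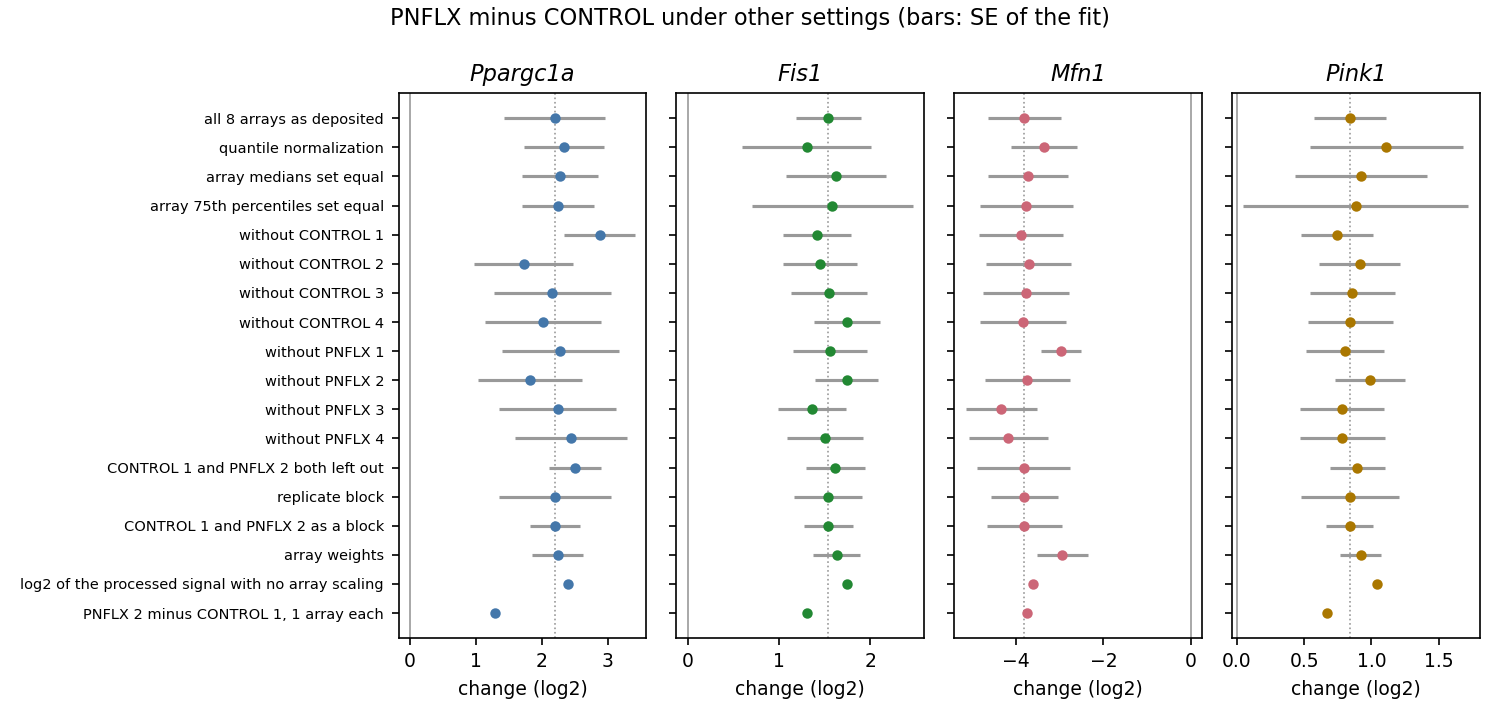
PNFLX minus CONTROL (horizontal axis, log2) of the 4 genes under each setting (rows), with SE bars where a fit gives one. The dotted line marks the value from all 8 arrays as deposited, and values lie on the same side of 0 in all settings shown, from 1.28 to 2.88 for Ppargc1a and from -4.34 to -2.94 for Mfn1. The horizontal scales differ between genes.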

How the data were processed

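The deposited value table holds log2 values for 15207 probes on 8 arrays, with the CONTROL median of each probe at 0. Gene names, processed signal intensities and unadjusted p-values came from the authors' deposited tables of 450 probes, per the file headers. There, the log2 value differed from log2 of the deposited intensity by additive array and probe constants (within 5.14e-07). No source used here names the scaling or software behind these constants or flags for detection, so dim probes were kept. All probes were fitted with limma 3.58.1 in R 4.3.3 (PNFLX minus CONTROL, no covariates, Benjamini-Hochberg adjustment), checked on simulated data. For the 4 genes, the authors' deposited p-values matched an unmoderated fit to 3 digits. Covariation was tested in Python 3.11.15 by exact permutation within groups (576 orders, smallest possible p 0.00174). Promoter windows came from RefSeq (GRCr8), matched by symbol for 4 of 4 genes. The genes, the 6 gene lists, the marker lists and the 6 promoter motifs were chosen with earlier results of these data known. Named genes were the 4 members, list genes with a named probe and the 3 most similar probes per gene. Alternatives were other scalings, models, weights and blocks, and leaving out arrays.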

Additional observations from a re-analysis of the deposited data

Results flagged for a closer look

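Among 20 groups of 4 arrays examined (10 genes in both groups), Dixon's ratio of gap to range passed its critical value in 2, where chance flags about 1 in 20. Pink1 in PNFLX 2 was at 0.35 (log2) while the other PNFLX arrays were at 0.92 to 0.98 (ratio of gap to range 0.912). Chchd3 in PNFLX 2 was at -0.11 while the others were at -0.62 to -0.54 (ratio 0.838). On this log2 scale, PNFLX 2 lay nearer to the CONTROL values than the other PNFLX arrays in both genes. This did not hold on processed signals, which are not scaled between arrays. There Pink1 on PNFLX 2 (5258) lay inside the PNFLX range of 4705 to 6063. Chchd3 on PNFLX 2 (3347) lay above the CONTROL range of 1739 to 2570.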

How the results depend on the processing

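The changes of the 4 genes kept their direction in all settings run. Pink1 with quantile normalization was at 1.11, more than 1 SD from its 0.84, and the cause was not tested. Leaving out single arrays gave 1.73 to 2.88 for Ppargc1a, 1.36 to 1.75 for Fis1, -4.34 to -2.97 for Mfn1 and 0.74 to 0.99 for Pink1 (log2). None of the 4 probes passed limma's threshold in those fits (0 in each), and 3 passed with array weights: Fis1 (adjusted p = 0.0354), Pink1 (0.0421) and Ppargc1a (0.0473), but not Mfn1 (0.0802). The smallest adjusted p of the 4 genes in the other fits ranged from 0.0999, with CONTROL 1 and PNFLX 2 as a block, to 1.00 (limma). Over all probes, 18 were called as deposited, 10 with quantile normalization, 4 with 75th percentiles set equal, 150 with array weights, 40 without CONTROL 1 and PNFLX 2, 43 with these as a block, 0 with a variance trend, 0 with the replicate number as a block, and 2 to 26 when single arrays were left out (2 without CONTROL 2 or PNFLX 4, 3 without CONTROL 3, 4 without CONTROL 4). The replicate block left the 4 changes at 2.20, 1.54, -3.81 and 0.84. Arrays of the same replicate number had correlations of deviations of -0.21, -0.67, 0.44 and 0.35 for numbers 1 to 4. These come from probes that are no independent replicates, and they include the 2 arrays set apart. They therefore cannot show whether the numbers pair the arrays.

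Correlations turned sign with quantile normalization for Ppargc1a with Fis1 (0.27), Mfn1 (0.30) and Pink1 (0.27), and without CONTROL 1 and PNFLX 2 for Ppargc1a with Fis1 (0.47, which are also its 2 farthest arrays) and Fis1 with Pink1 (-0.56). Leaving out single arrays gave r of -0.78 to -0.28 for Ppargc1a and Fis1, -0.59 to -0.04 for Ppargc1a and Mfn1, -0.96 to -0.84 for Ppargc1a and Pink1, 0.01 to 0.65 for Fis1 and Mfn1, 0.22 to 0.80 for Fis1 and Pink1, and 0.02 to 0.91 for Mfn1 and Pink1. Ppargc1a, Mfn1, Vcan and Rgs5 had signals at or near the lowest of an array, and the part of this in the size of their changes was not tested.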

Other observations

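The authors' gene annotation gives a mitochondrial cellular component term to 17 of the 175 listed probes that have any such term, 10 listed as higher and 7 as lower. This set was chosen after the data were seen, and it includes Pink1 and Mfn1, while Fis1 and Ppargc1a carry no such term there. None of the 17 passed limma's adjusted threshold (0.118% of all probes did), and 11 had an unadjusted p under 0.05 (limma, 2.58% of all probes). The authors' tables were already filtered on p over the same arrays, so nothing is read from these counts. The largest change among those listed as higher was that of Acad9, a complex I assembly factor (3.91 ± 0.63, log2, SE), with a median CONTROL signal of 6.55 and a PNFLX median of 147. It was followed by Mpst (1.80 ± 0.33), an enzyme of hydrogen sulfide production, and Etfdh (1.78 ± 0.31), which passes electrons from fatty acid oxidation to ubiquinone. Mfn1 had the largest change among those listed as lower, before Ndufa7 (-3.57 ± 0.93) and Mtch2 (-2.18 ± 0.58), an outer-membrane carrier homologue. Without CONTROL 1 and PNFLX 2 these changes were 4.61 for Acad9, 1.99 for Mpst, 2.04 for Etfdh, -2.84 for Ndufa7 and -2.37 for Mtch2.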
